A study of Mus musculus with 8 samples.

Results

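The 9 genes described here encode transcription factors that set myeloid lineage identity, and they were taken by gene symbol: Cebpa, Cebpb, Cebpd, Cebpe, Spi1, Gfi1, Klf4, Egr2 and Myb. They hold 10 of the 19353 transcript rows (Gfi1 has 2) and 9 of the 17553 gene symbols in the deposited tables. RNA was sequenced from Lin- cells of mouse bone marrow, a preparation depleted of mature blood cells and labelled as haematopoietic stem cells (HSC). All 8 libraries come from C57BL/6 cells labelled Ring1a-/- and Cdkn2a-/-, so by the labels the WT cells also lack Ring1a, the paralogue of Ring1b, and the INK4A/ARF tumour suppressor locus. Ring1b KO cells had been given OHT (4-hydroxytamoxifen) for 72 h and Ring1b WT cells EtOH, so deletion and drug cannot be told apart. Each genotype was studied in 4 contexts: cells transduced with the homeobox gene HOXA9, with the leukaemia fusion PML-RARa or with the leukaemia fusion MLL-AF9, and cells labelled as not transduced (NT), whose table is headed by a word for an empty condition. There was 1 library for each context and genotype. The 4 contexts are therefore the only replication, and p-values measure the spread between contexts rather than between animals or cultures.

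The Polycomb complex PRC1, a repressor of developmental genes, takes Ring1a or Ring1b as its ubiquitin ligase. Myeloid progenitors depend on Myb, which sustains proliferation, and take up myeloid fate under Spi1 (PU.1) and Cebpa. Granulocytes then rely on Gfi1 and Cebpe and monocytes and macrophages on Egr2 and Klf4, with Gfi1 and Egr2 known to antagonise each other, and Cebpb serves stress granulopoiesis and macrophage genes. Cebpd is a C/EBP factor induced by inflammatory signals and during granulocyte maturation.

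The library totals ran from 4226751 to 6998223 reads. Each value is a normalised read count of a RefSeq transcript, scaled over all 8 libraries together. The whole-transcript value of Rnf2 (NM_011277), the gene of Ring1b, was 767 to 856 in KO libraries and 666 to 990.4 in WT libraries. It checks no label, because the removed part of the gene is not given. Reads at Ring1 (NM_009066), the gene of Ring1a, were present although it is labelled as knocked out, at 23.8 to 77.8 in KO and 109 to 191 in WT libraries. So were reads at the Cdkn2a transcript NM_001040654, at 25.3 to 58.3 in KO and 18.0 to 34.4 in WT libraries. The Cdkn2a transcript NM_009877 had 30.1 to 48.8 in KO and 25.6 to 67.2 in WT libraries. By the limma fit described below, Ring1 was called lower in KO, by 1.81 ± 0.33 on the log2 scale (limma adjusted p = 0.040). The cause was not tested. Mpo, a granule enzyme of early granulocytes, had 1065 to 4588 normalised reads, and the T and B cell genes Cd3e, Cd79a and Ebf1 had at most 8.19 in any library. Of the stem and progenitor receptors, Cd34 had 10.6 to 117 normalised reads and the one Kit transcript in the tables had 1.36 to 34.5. The median log2 ratio of KO over WT over all 10599 tested transcripts was -0.10 in MLL-AF9 and closer to 0 in the other contexts.

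The sequences before the start sites of the 3 genes with the largest differences in opposite directions among the granulocyte and macrophage factors are shown for reference. They are RefSeq windows of build GRCm38.p6 (the deposited values were made on mm9), printed 5′ to 3′ on the gene's strand and ending at the base before the start of transcription. Capitals mark a match to a C/EBP motif in Gfi1, a CArG box in Egr2 and EGR motifs in Klf4. The Gfi1 windows lie on the minus strand at chr5:107725806-107725954 for NM_001267621, which is 149 bases long, and at chr5:107724344-107724593 for NM_010278. These Gfi1 starts are 1462 bases apart. The Egr2 window is chr10:67537619-67537868 on the plus strand and the Klf4 window chr4:55532476-55532725 on the minus strand.
Gfi1 NM_001267621: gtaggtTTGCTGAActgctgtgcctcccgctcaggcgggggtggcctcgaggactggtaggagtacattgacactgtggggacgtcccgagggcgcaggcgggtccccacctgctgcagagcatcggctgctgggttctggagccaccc
Gfi1 NM_010278: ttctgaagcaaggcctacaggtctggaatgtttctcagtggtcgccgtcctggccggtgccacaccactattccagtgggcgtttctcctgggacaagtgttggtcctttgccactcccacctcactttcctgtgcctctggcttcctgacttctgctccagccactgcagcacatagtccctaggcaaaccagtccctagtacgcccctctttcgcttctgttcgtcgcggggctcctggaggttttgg
Egr2 NM_010118: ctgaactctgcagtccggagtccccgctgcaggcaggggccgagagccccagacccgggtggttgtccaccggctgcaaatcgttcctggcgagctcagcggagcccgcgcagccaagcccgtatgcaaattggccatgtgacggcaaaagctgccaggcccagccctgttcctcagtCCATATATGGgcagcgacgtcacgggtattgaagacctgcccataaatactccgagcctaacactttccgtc
Klf4 NM_010637: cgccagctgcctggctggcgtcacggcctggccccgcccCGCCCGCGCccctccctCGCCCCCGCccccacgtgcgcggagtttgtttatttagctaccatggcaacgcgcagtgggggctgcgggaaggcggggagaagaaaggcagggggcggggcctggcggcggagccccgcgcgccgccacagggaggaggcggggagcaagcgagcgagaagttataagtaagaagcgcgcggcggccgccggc

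Windows of up to 250 bases were found for 6 of the 9 genes, 11 windows in all, some of which overlap. They were searched on both strands for TTGCNNAA (C/EBP), GAGGAAGT (PU.1), AAATCNC (GFI1), GCGNGGGCG (EGR), GGGTGTGG (KLF), TAACNG or CAACNG (MYB) and the CArG box. The C/EBP motif was in 1 of the 11 windows, 143 bases before the upstream Gfi1 start, and in 9.56% of all 32851 windows. The EGR motif was in the Klf4 window at 211 and 194 bases before the start, and in 4.70% of all windows. The CArG box, the site of serum response factor, was in 4 windows, all of Egr2, and in 1.47% of all windows. In the printed Egr2 window it lay 72 bases before the start. Some of these Egr2 windows overlap and share 1 site, so they do not hold 4 separate sites. The MYB motif was in 1 window, of another Egr2 start, against 43.1% of all windows. The PU.1, GFI1 and KLF motifs, found in 2.44%, 10.3% and 3.20% of all windows, were in none of the 11. A match is a run of letters and no evidence of binding.

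Across the 4 contexts, loss of Ring1b went with lower Myb, Cebpa and Cebpd and with higher Egr2. These were the members that passed the test: 1 rose, 3 fell and 5 did not pass, out of 9 tested transcripts. The test was limma on log2(value + 1) with the context as a block, with Benjamini-Hochberg adjustment over the 10599 transcripts that averaged at least 20 normalised reads. Over all of them 13.9% were called, 6.40% higher and 7.48% lower in KO. The median log2 ratio of the tested members was -0.72, against -0.03 over all tested transcripts. In bulk RNA, fewer cells of a type and less RNA per cell cannot be told apart. All 10 member transcripts kept one direction in the 4 contexts, which 22.9% of the tested transcripts did upwards and 26.5% downwards. Egr2 and Myb were the 2 transcripts whose KO and WT values did not overlap, a pattern seen in 8.28% of tested transcripts with KO higher and in 12.6% with KO lower.

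**Figure D1:**
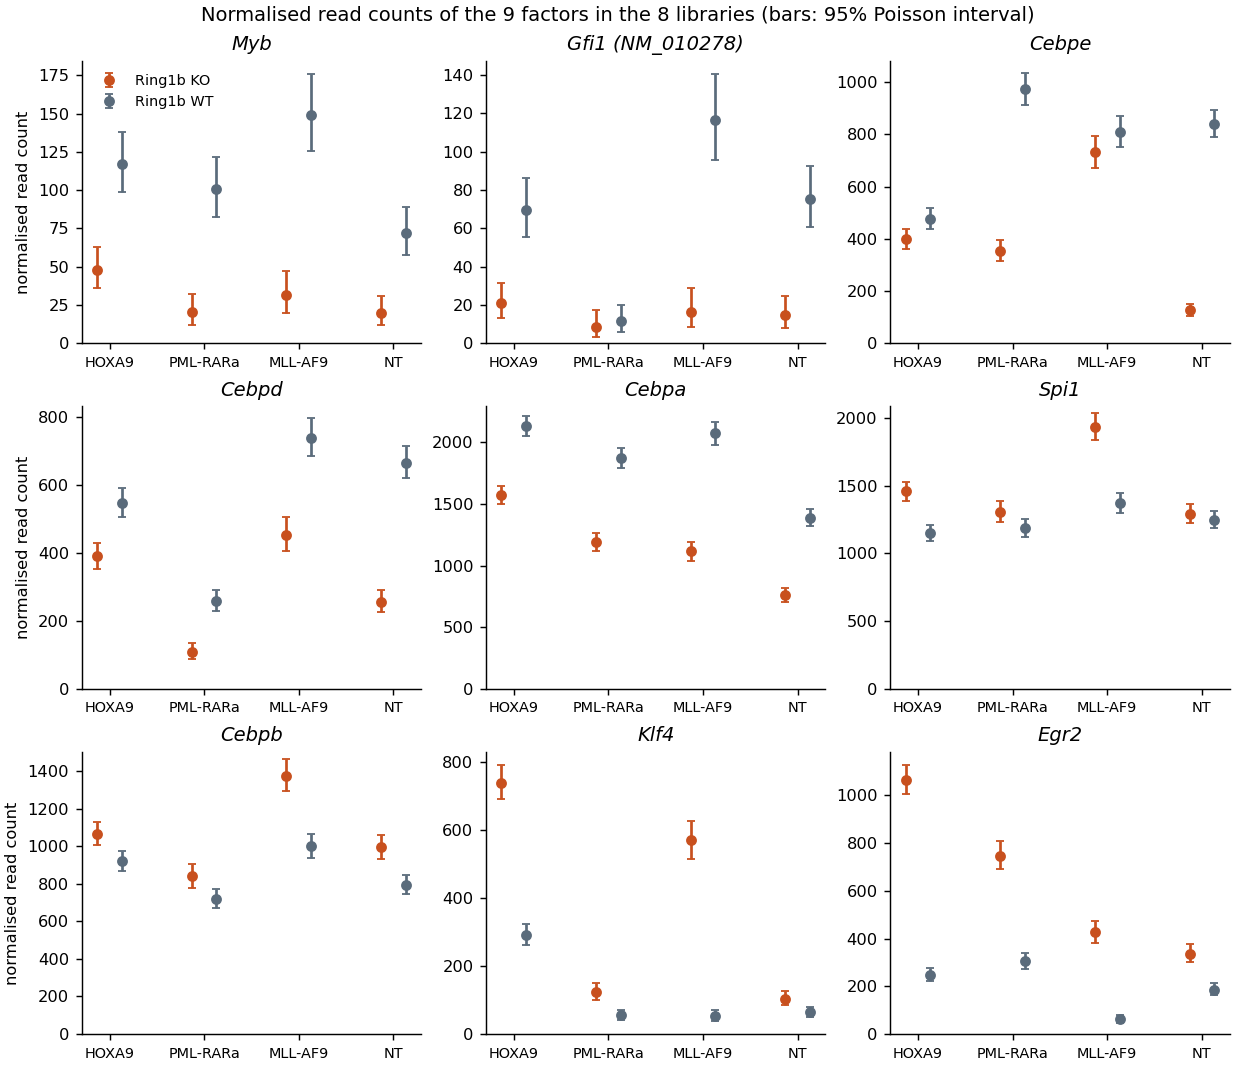
Normalised read count (linear axis from 0) of each factor in the 8 libraries, by context, with Ring1b KO left of Ring1b WT and bars for the 95% Poisson interval of the reads. Myb lies at 19.7 to 48.0 in KO libraries and at 72.0 to 149 in WT libraries, and Egr2 at 337 to 1066 in KO libraries against 62.5 to 304 in WT libraries.

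Myb (NM_001198914), the factor of proliferating progenitors, had 48.0 normalised reads in the HOXA9 KO library, 20.2 in PML-RARa KO, 31.4 in MLL-AF9 KO and 19.7 in NT KO. The WT libraries held 117 in HOXA9, 100.5 in PML-RARa, 149 in MLL-AF9 and 72.0 in NT. Every KO library was below every WT library. Myb fell by 1.89 ± 0.21 on the log2 scale (SE, 4 contexts, limma adjusted p = 0.035), which is 0.270 of the WT level with a 95% interval of 0.186 to 0.391. The ratio rests on 17 to 53 reads in each KO library, against 87 to 141 in each WT library. Its steepest ratio was that of PML-RARa, 0.201, and its mildest that of HOXA9, 0.410. The other Myb transcripts of RefSeq were not analysed here.

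Cebpa (NM_007678), the factor that directs progenitors to granulocyte and monocyte fate, had 1574 normalised reads in HOXA9 KO, 1191 in PML-RARa KO, 1115 in MLL-AF9 KO and 756 in NT KO cells. The WT values were 2133 in HOXA9, 1872 in PML-RARa, 2074 in MLL-AF9 and 1389.9 in NT. The KO library was lower within every context, while the HOXA9 KO value lay above the NT WT value. Cebpa fell by 0.72 ± 0.13 on the log2 scale (limma adjusted p = 0.040), to 0.609 of the WT level (95% interval 0.481 to 0.770).

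Cebpd (NM_007679), a C/EBP factor induced by inflammatory signals, had 389 normalised reads in HOXA9 KO, 108 in PML-RARa KO, 453 in MLL-AF9 KO and 256 in NT KO cells. Its WT values were 546 in HOXA9, 257 in PML-RARa, 738 in MLL-AF9 and 665 in NT. Both PML-RARa libraries were the lowest of their genotype. Cebpd fell by 0.95 ± 0.19 on the log2 scale (limma adjusted p = 0.045), to 0.517 of the WT level (95% interval 0.364 to 0.734).

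Cebpe (NM_207131), the factor of late granulocyte maturation, had the widest spread of KO over WT ratios between contexts among the C/EBP genes. It had 399 normalised reads in HOXA9 KO, 352 in PML-RARa KO, 731 in MLL-AF9 KO and 126 in NT KO cells. The WT libraries held 477 in HOXA9, 973 in PML-RARa, 810.0 in MLL-AF9 and 839.7 in NT. The KO level in NT was thus 0.150 of the WT level (95% counting interval 0.123 to 0.181), while the ratio was 0.836 in HOXA9 and 0.903 in MLL-AF9. The mean log2 ratio of -1.15 ± 0.49 did not pass (limma adjusted p = 0.16), and its 95% interval ran from -2.42 to 0.12. Without the NT pair the mean was -0.62.

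Cebpb (NM_009883) and Spi1 (NM_011355) were the abundant factors with the smallest differences. Cebpb had 1065 normalised reads in HOXA9 KO, 841 in PML-RARa KO, 1377 in MLL-AF9 KO and 994 in NT KO cells, against 921, 719.6, 999.6 and 796 in the WT cells of those contexts. Spi1 had 1456 in HOXA9 KO, 1304 in PML-RARa KO, 1933 in MLL-AF9 KO and 1290.5 in NT KO cells, against 1148, 1187, 1368 and 1246 in the WT cells of those contexts. KO was the higher library in each context for both genes. Neither passed: the mean log2 ratio was 0.30 ± 0.11 for Cebpb (limma adjusted p = 0.11) and 0.26 ± 0.13 for Spi1 (limma adjusted p = 0.21). The 95% interval of the KO over WT fold was 1.01 to 1.5 for Cebpb and 0.95 to 1.5 for Spi1. In reads before scaling, the KO over WT ratio of Cebpb lay between 0.940 and 1.07. The size factor and the read total were both lower in the KO library of every pair. Per total reads of the library, the ratio was 1.06 in HOXA9, 1.15 in PML-RARa, 1.35 in MLL-AF9 and 1.22 in NT.

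Gfi1, a repressor that holds the granulocyte fate, was scarce. Its transcript NM_010278 had 20.8 normalised reads in HOXA9 KO, 8.33 in PML-RARa KO, 16.4 in MLL-AF9 KO and 14.5 in NT KO cells. WT cells held 69.7 in HOXA9, 11.5 in PML-RARa, 116 in MLL-AF9 and 75.3 in NT. The PML-RARa WT library lay within the range of the KO libraries, and its ratio of 0.726 (7 against 12 reads) has a 95% counting interval of 0.242 to 2.0. The mean log2 ratio was -1.79 ± 0.41 (limma adjusted p = 0.053), so Gfi1 did not pass by limma, while edgeR on the recovered reads gave an adjusted p of 0.034. The second transcript, NM_001267621, which starts upstream, had 3.57 to 9.05 normalised reads in KO libraries and 4.78 to 26.5 in WT libraries. It was under the minimum and not tested, and its lowest WT value was also in PML-RARa. How the authors divided reads between the transcripts of a gene is not known, and symbols with several rows had a median of 2.63 reads per kb, against 33.6 for symbols with 1 row.

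Egr2 (NM_010118), a zinc finger factor of macrophages, had 1066 normalised reads in HOXA9 KO, 747 in PML-RARa KO, 426 in MLL-AF9 KO and 337 in NT KO cells. The WT values were 248 in HOXA9, 304 in PML-RARa, 62.5 in MLL-AF9 and 186 in NT. All KO libraries exceeded all WT libraries. Egr2 rose by 1.75 ± 0.35 on the log2 scale (limma adjusted p = 0.044), a 3.36-fold increase with a 95% interval of 1.80 to 6.28. The fold was 4.29 in HOXA9, 2.46 in PML-RARa, 6.81 in MLL-AF9 and 1.81 in NT.

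Klf4 (NM_010637), a factor of monocyte differentiation, had 739 normalised reads in HOXA9 KO, 124 in PML-RARa KO, 569 in MLL-AF9 KO and 104 in NT KO cells. The WT libraries held 291 in HOXA9, 55.5 in PML-RARa, 52.9 in MLL-AF9 and 64.5 in NT. KO was higher in each context, and the HOXA9 WT value lay above the PML-RARa and NT KO values. The folds spread from 1.61 in NT to 10.7 in MLL-AF9, where the 95% counting interval was 8.0 to 14.7. The mean log2 ratio of 1.64 ± 0.49 did not pass (limma adjusted p = 0.080), and DESeq2 gave an adjusted p of 0.0028. Without the MLL-AF9 pair the mean was 1.06.

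**Figure D2:**
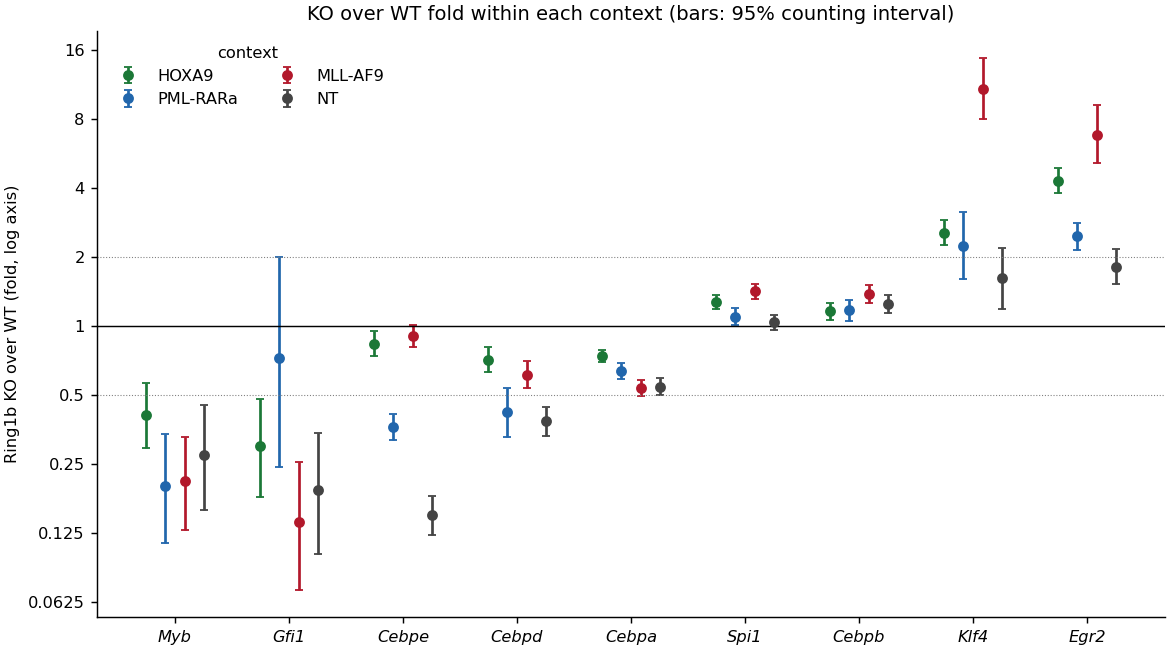
Ring1b KO over WT fold of each factor (log axis) within each context, with bars for the 95% counting interval and dotted lines at 2-fold (Gfi1 is NM_010278). Myb lies below 1 in every context and Egr2 above 1, while the folds of Klf4 run from 1.61 in NT to 10.7 in MLL-AF9 and those of Cebpe from 0.150 in NT to 0.903 in MLL-AF9.

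Each of the 4 calls ended when any 1 context was left out, with 3 pairs remaining: the limma adjusted p ranged from 0.055 to 0.10 for Myb, 0.076 to 0.12 for Cebpa, 0.078 to 0.13 for Cebpd and 0.080 to 0.12 for Egr2, with no sign changed. With no filter on low values the adjusted p was 0.071 for Cebpa, 0.072 for Cebpd and 0.063 for Egr2, and without the context block 0.10, 0.26 and 0.089 in that gene order, while Myb passed both. On the recovered reads, edgeR called 1 member higher and 4 lower (9.63% and 10.4% of all tested transcripts), Gfi1 being the addition, and DESeq2 called 3 higher and 4 lower (16.7% and 12.9%), adding Klf4 and Cebpb.

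Within each context, 1 KO library stands against 1 WT library, so there is no test, and a member is counted at 2-fold or more with at least 20 normalised reads in the higher library. In HOXA9, Egr2 and Klf4 were higher and Myb and both Gfi1 transcripts lower (2 and 3 of the 10 transcripts, against 9.13% and 6.39% of all transcripts with such a value). Gfi1 NM_001267621 rests there on 10 against 25 reads, and with a pseudocount of 10 it no longer counts, leaving 2 lower. In PML-RARa, Egr2 and Klf4 were higher and Myb, Cebpd and Cebpe lower. These were 2 and 3 of the 8 member transcripts with such a value, against 9.06% and 13.7%. In MLL-AF9 the members were those of HOXA9 (2 and 3, against 14.6% and 16.0%). In NT no member was higher, and Myb, Cebpd, Cebpe and both Gfi1 transcripts were lower (0 and 5, against 13.8% and 8.76%). The authors' deposited table gave unadjusted p-values under 0.05 to Egr2 in HOXA9 (0.041) and MLL-AF9 (0.010), Klf4 (0.0022) and Gfi1 NM_010278 (0.032) in MLL-AF9 and Cebpe in NT (0.0096). Such p-values went to 1.82% of all transcripts in HOXA9, 2.32% in PML-RARa, 4.16% in MLL-AF9 and 2.91% in NT, and they compare single libraries, not conditions.

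The 3 transduced contexts taken alone kept the direction of every member, but none was called (0.255% of 10583 transcripts were called by limma). At an unadjusted p under 0.05 there were 6 of the 9 tested members, against 3192 of all 10583 transcripts. The smallest limma adjusted p was 0.075, for Myb. The difference of the KO over WT ratio between transduced and NT cells was also not called by limma for any member, nor for any of the 10599 transcripts (0% called, 573 at an unadjusted p under 0.05). Cebpe had the largest difference. Its log2 ratio was 2.11 ± 0.66 higher in the transduced contexts than in NT (unadjusted p = 0.033, limma adjusted p = 0.87). The difference was 1.28 ± 1.06 for Klf4 and 1.20 ± 0.66 for Egr2 (limma adjusted p = 0.999 for both).

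The transduced contexts were compared with NT to ask whether these factors differed between contexts. Over both genotypes, no member was called by limma with the genotype as a block: 2.21% of all transcripts were called in HOXA9 cells, 0.0189% in PML-RARa cells and 2.87% in MLL-AF9 cells. At an unadjusted p under 0.05 there were 3 of the 9 tested members in HOXA9 cells, against 1963 of all 10599 transcripts. The smallest limma adjusted p of a member was 0.26 in PML-RARa cells and 0.22 in MLL-AF9 cells. The largest difference was that of Klf4 in HOXA9 cells, 2.49 ± 0.69 on the log2 scale (limma adjusted p = 0.18, and 0.046 without the MLL-AF9 context). Cebpa was 0.84 ± 0.18 higher in HOXA9 cells (limma adjusted p = 0.13), and its difference was 0.54 in PML-RARa and 0.57 in MLL-AF9 cells. Cebpd had a difference of -1.30 ± 0.27 (limma adjusted p = 0.26) and Gfi1 one of -1.67 ± 0.58 (limma adjusted p = 0.36) in PML-RARa cells.

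Among WT libraries, which have no replicate, Klf4 was the 1 member at least 2-fold higher in HOXA9, at 4.50 times the NT level (counting interval 3.51 to 5.83), and none was lower (background 11.7% higher and 7.45% lower). In PML-RARa WT cells Cebpd stood at 0.387 and Gfi1 NM_010278 at 0.153 of the NT level, and with the other Gfi1 transcript they made up the 3 lower members (none higher, background 12.5% higher and 8.43% lower). In MLL-AF9 WT cells Egr2 was lower, at 0.336, and Myb higher, at 2.07 times the NT level (1 each, background 8.77% higher and 10.9% lower), though with a pseudocount of 10 Myb was under 2-fold. Spi1 stayed between 0.922 and 1.10 times its NT level in the 3 transduced WT libraries, and Cebpb between 0.904 and 1.26. Among KO libraries, set against NT KO by the same rule, HOXA9 cells had 5 members higher and 0 lower (background 13.2% and 10.3%): Klf4 at 7.12 times the NT level, Cebpe at 3.17, Egr2 also at 3.17, Myb at 2.43 and Cebpa at 2.08. The Myb value rests on 53 against 19 reads, and with a pseudocount of 10 it was under 2-fold. In PML-RARa KO cells Cebpe at 2.80 and Egr2 at 2.22 were the 2 higher members and Cebpd at 0.424 the 1 lower member (background 4.45% and 6.16%), while Klf4 was at 1.19. In MLL-AF9 KO cells Cebpe at 5.82 and Klf4 at 5.48 were the 2 higher members, with 0 lower (background 9.18% and 13.5%).

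Levels between genes are compared per kb of transcript. How reads were divided between the transcripts of a gene is not known, so the levels of Gfi1 and Myb may not be those of the whole gene. Averaged over the 4 contexts, Spi1 and Cebpb were the most abundant factors in KO cells (735 and 711 normalised reads per kb), followed by Cebpa (441), Cebpe (324), Egr2 (217), Klf4 (127), Cebpd (80.5), Myb (8.08) and Gfi1 NM_010278 (5.25). In WT cells the order began with Cebpa (711), Cebpe (624.6), Spi1 (608) and Cebpb (571), and went on with Cebpd (147), Egr2 (67.5), Klf4 (38.3), Myb (29.7) and Gfi1 (23.9). Neighbours among the leading genes were not set apart by this: Spi1 ran from 634 to 950 and Cebpb from 559 to 915 per kb over the KO libraries. Cebpa reached 0.978 reads per base of transcript in its highest library, and 402 of 18873 transcripts exceeded 1 and 1 exceeded 2. Whether the ratios of the most abundant members are compressed was not tested.

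Ratios between factors within a library describe the values already given. Egr2 over Gfi1, with the per-kb levels of both Gfi1 transcripts added, was 33.6 in HOXA9 KO, 59.1 in PML-RARa KO, 18.4 in MLL-AF9 KO and 17.05 in NT KO cells. The ratio was 2.60 in HOXA9 WT, 17.6 in PML-RARa WT, 0.429 in MLL-AF9 WT and 1.73 in NT WT cells. MLL-AF9 WT cells were the one library in which Gfi1 exceeded Egr2. Cebpb over Cebpa was above 1 in all 4 KO libraries (1.18 to 2.30). It was 0.671 to 0.9998 in the 4 WT libraries, of which NT WT, the highest, was not set apart from 1. Spi1 over Myb was 55.1 to 119 in KO and 16.6 to 31.4 in WT libraries. With 4 pairs an exact two-sided permutation of signs cannot go below p = 0.125.

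**Figure D3:**
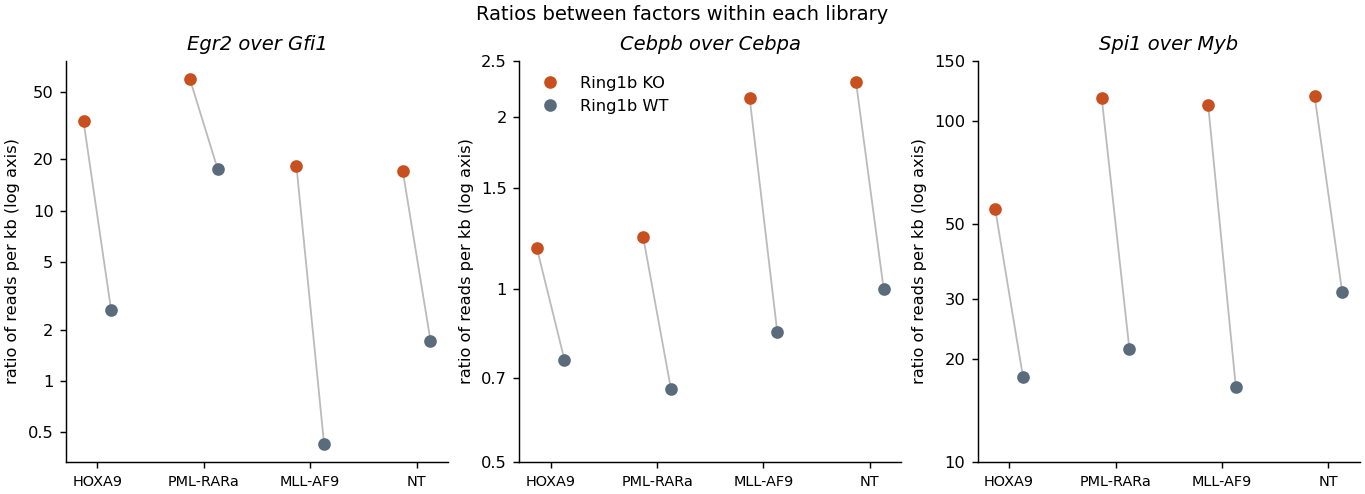
Ratio of the per-kb levels of 2 factors in each library (log axis), by context, with Ring1b KO left of Ring1b WT and a line joining each pair. All 3 ratios are higher in the KO library of every context (Gfi1 is the sum of its 2 transcripts). Cebpb over Cebpa lies above 1 in KO and below 1 in WT libraries, except that NT WT, at 0.9998, is not set apart from 1.

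Genes around these factors were read from 6 lists, by the same limma fit. Their calls rest on all 4 pairs, since without any 1 pair 0 to 27 transcripts of the whole table were called. Of 12 tested monocyte and macrophage genes, 5 rose, 0 fell and 7 did not pass, with a median log2 ratio of 1.54 against -0.03 over all tested transcripts. Csf1r, the receptor of macrophage colony stimulating factor, had 3763 normalised reads in HOXA9 KO, 1317 in PML-RARa KO, 3804 in MLL-AF9 KO and 1778 in NT KO cells. Its WT values were 826 in HOXA9, 336 in PML-RARa, 274 in MLL-AF9 and 659 in NT. The KO libraries all lay above the WT libraries, and Csf1r rose by 2.34 ± 0.41 on the log2 scale (limma adjusted p = 0.039). Mertk, a receptor for dying cells, rose by 4.65 ± 0.65, the mannose receptor Mrc1 by 3.64 ± 0.67, Emr1 (F4/80) by 1.87 ± 0.37 and the lysosomal Cd68 by 1.21 ± 0.25. The summed level of the 15 listed genes was 28743 in HOXA9 KO, 14126 in PML-RARa KO, 29220 in MLL-AF9 KO and 14167 in NT KO cells, against 10074, 4994, 7899 and 8205 in the WT cells of those contexts. Within each context the sum was higher in the KO library, as Egr2 and Klf4 were, and its part in their values was not tested. Between the WT libraries, Egr2 was highest in PML-RARa, where the sum was lowest and the listed gene Emr1 was highest (1659 normalised reads).

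Of 16 tested neutrophil granule genes, 0 passed by limma in either direction and 0 by edgeR, with a median of -0.34. Values lay on both sides of 0. Mmp9, a granule protease, had a log2 ratio of 2.005 ± 0.64 (limma adjusted p = 0.093) and Cybb, the phagocyte oxidase also present in macrophages, 1.76 ± 0.88 (limma adjusted p = 0.21), while Mpo had -1.06 ± 0.32 (limma adjusted p = 0.085). Of 17 tested partners and regulators in myeloid fate, 4 rose, 0 fell and 13 did not pass, with a median of 0.31. Maf, a factor of macrophages, rose by 3.78 ± 0.79. The AP-1 subunit Jun rose by 1.34 ± 0.27 and Zeb2, a repressor needed in myeloid cells, by 1.19 ± 0.14 (limma adjusted p = 0.035). Runx1 was not analysed here.

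Of the relatives and cofactors of the 9 factors, 15 were tested: 0 rose, 1 fell and 14 did not pass, with a median of -0.02. Mybl2, the Myb relative of dividing cells, fell by 1.89 ± 0.27 (limma adjusted p = 0.035), with 250 to 779 normalised reads in KO and 1084 to 2026 in WT libraries. Among progenitor and proliferation genes linked to Myb, 0 of 11 rose, 2 fell and 9 did not pass, with a median of -0.92. The mitotic genes Birc5 and Ccnb1 fell by 2.61 ± 0.33 and 1.27 ± 0.27. Mki67 had a ratio of -1.17 ± 0.27 (limma adjusted p = 0.053). Of the others that did not pass, Mecom (1.49), Cd34 (0.57), Gata2 (0.24) and Bcl2 (0.20) had log2 ratios above 0. Flt3 (-1.16), Lmo2 (-1.07), Sox4 (-0.92) and Ccne1 (-0.76) had ratios below 0. Myc was not analysed here.

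Markers of other cell types were checked beside these results. Of 13 tested, 1 rose, 2 fell and 10 did not pass, with a median of 0.02. The eosinophil peroxidase gene Epx fell by 3.998 ± 0.27, with 19.0 to 98.2 normalised reads in KO and 373 to 826 in WT libraries, and Nkg7, a granule gene best known from NK and cytotoxic T cells, fell by 2.13 ± 0.22, with 37.1 to 132 in KO and 223 to 519 in WT libraries. The platelet glycoprotein gene Gp9 rose by 1.86 ± 0.27. Epx moved in the direction of Myb, Cebpa and Cebpd in every context. The summed level of the 21 markers was 4448 in HOXA9 KO, 16117 in PML-RARa KO, 4415 in MLL-AF9 KO and 15222 in NT KO cells, and 4669, 11686, 3317 and 12035 in the WT cells of those contexts, so it set PML-RARa and NT apart from HOXA9 and MLL-AF9. The largest entries of the sum in PML-RARa KO cells were Itga2b (5846), Cpa3 (3301), Tpsb2 (2209), Fcer1a (1913) and Mcpt8 (1345). These are genes of megakaryocytes, mast cells and basophils. In HOXA9 KO cells they had 808, 1336, 625, 69.7 and 375 in that order. Epx, Nkg7 and Gp9 had 19.0, 132 and 63.1 in PML-RARa KO cells. The part of the summed level in the levels of Klf4 and Cebpe was not tested. Cd3e and Ebf1 had at most 2.08 normalised reads, near the lowest entry of the tables.

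**Figure D4:**
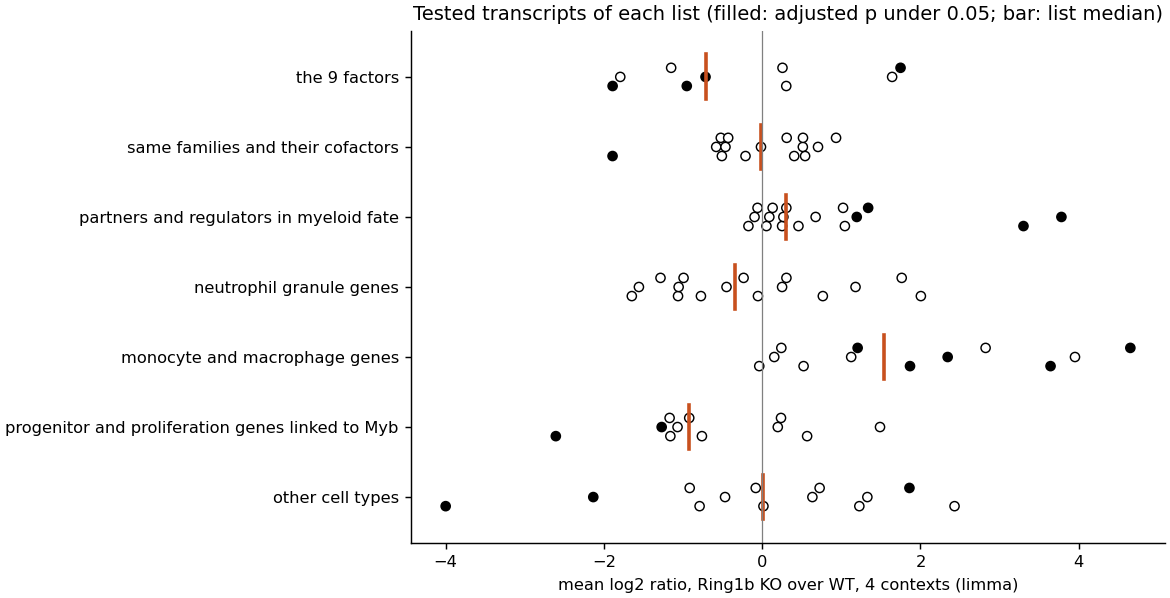
Mean log2 ratio of Ring1b KO over WT across 4 contexts for every tested transcript of the 9 factors and the 6 lists, with filled points for a limma adjusted p under 0.05 and a bar at the list's median. The median is -0.72 for the factors, 1.54 for monocyte and macrophage genes and -0.92 for progenitor and proliferation genes linked to Myb.

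The transcripts whose levels were most like those of each factor over the 8 libraries were named by Pearson correlation of log2(value + 1) among 7959 transcripts with a mean of at least 100. The 8 libraries share contexts and genotypes, so these values are descriptions. Myb was most like Rabl6 and D2Wsu81e (r = 0.993 for both), Gfi1 NM_010278 like Fam222b and Zfp770 (0.977 for both), and Cebpa like Bap1 (0.988) and Stc2 (0.977). Cebpd was most like Fam118a (0.984) and Trem3 (0.972), Cebpe like Chst12 (0.931) and Npm3 (0.912), and Cebpb like Gng10 (0.965) and Stk3 (0.943). Spi1 was most like Skap2 (0.970) and Nus1 (0.954), Klf4 like Ccrl2 (0.961) and Lrrc25 (0.960), and Egr2 like Plcl2 (0.971) and Peak1 (0.968). Between members, Cebpa and Myb had r = 0.91, Cebpb and Spi1 0.87, Cebpd and Gfi1 0.87, and Gfi1 and Egr2 -0.77.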

How the data were processed

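RNA from 8 mouse libraries, 1 per context and genotype, was prepared with a TruSeq RNA kit that does not mark strand, per the labels' protocols, so reads of overlapping or antisense genes cannot be told apart. The submitters' processing notes list TopHat, DESeq and mm9, without versions or order. The read counter is not given in the sources used here. Per the file headers, the 4 deposited tables hold the authors' base means, a normalised signal, with a fold change (ratio), its log2 value and an unadjusted p-value from 1 library against 1. The columns gave whole reads for 100% of values within a tolerance of 0.02, and their size factors match a joint scaling of the 8 libraries. From 15.1% to 20.0% of transcripts in a library stand at the lowest entry, 1 read, which may stand for 0. Library totals were 4226751 to 6998223 reads. Intervals cover counting error only, at 95%.

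limma (3.58.1, R 4.3.3) was run two-sided on log2(value + 1), a scale that understates changes of low values, over 10599 transcripts with a mean of at least 20, with the context (or, for contexts against NT, the genotype) as a block and Benjamini-Hochberg adjustment. A call is an adjusted p under 0.05. The context pairs the libraries by design. edgeR (4.0.16, quasi-likelihood) and DESeq2 (1.42.0) were run on the recovered reads as alternatives, beside other pseudocounts, filters, centring, blocks and pairs left out. Of the fits, only limma across the 4 contexts was tested on simulated data, in which a changed gene had the same change in every context. Named are all members, up to 4 called genes of each list with the largest change or else the largest 2, and the 2 transcripts most like each member, except items not reported here; Mpo, Cd68, Mki67, Cd34, Kit and the lymphoid markers were added after their values were seen. The members and lists were chosen with earlier results of these data known. Promoter windows come from RefSeq, build GRCm38.p6.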

Additional observations from a re-analysis of the deposited data

How the results depend on the processing

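Across the 4 contexts limma called 1471 transcripts, 1 member higher and 3 lower. DESeq2 called 3130 (3 members higher), limma with a trend and robust prior 2257, and limma with no filter on low values 354 (0 members higher, 1 lower). With no replicate block, 999 transcripts were called, 0 members higher and 1 lower (Myb, adjusted p = 0.026). Without any 1 pair, 0 to 27 transcripts were called (2971 to 3321 at an unadjusted p under 0.05) and 0 members in either direction. The share of calls that were higher in KO was 46.1%, and 56.5% by DESeq2, 58.7% by edgeR with TMM and no filter and 58.5% by limma with no filter. In the 3 transduced contexts, 27 transcripts were called, 0 with no filter (4147 at an unadjusted p under 0.05) and 0 to 94 without any 1 pair. For contexts against NT, leaving out a transduced context gave 0 to 1 members called higher in HOXA9, where 234 transcripts were called and 153 to 204 without another context. In PML-RARa 2 transcripts were called, 0 without another context and 0 with a pseudocount of 10. In MLL-AF9 304 were called, and 190 to 224 without another context. With a pseudocount of 10, 0 members were at least 2-fold higher in MLL-AF9 WT than in NT WT. The levels of KO libraries against NT KO were added after seeing the data, and their counts stayed within 1.5 times with a pseudocount of 10 or scaling by total reads.

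The sign changed for 3 small values, none of them called. The difference between transduced and NT ratios of Cebpb was -0.02, with a range of -0.10 to 0.023 without 1 pair (0.015 without PML-RARa), and 0.069 with ratios centred on their median. That of Myb was -0.10, with a range of -0.42 to 0.073 without 1 pair (0.052 without MLL-AF9). Spi1 in PML-RARa against NT was -0.03, and 0.072 with values centred on the NT library. The causes were not tested. Few reads limit Gfi1 (NM_010278) and Myb, whose KO libraries hold 7 to 23 and 17 to 53 reads.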
